A study of Homo sapiens with 6 samples.

Results

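The 8 mucin genes described here are MUC1, MUC4, MUC5AC, MUC5B, MUC13, MUC16, MUC20 and EMCN, taken by symbol from a table of 16670 genes. All 8 had a row in the table, and 7 passed a filter on low values and were tested, whereas EMCN lay near 0 throughout. The RNA came from A549, a long-established non-small cell lung cancer line of human origin with features of lung epithelium. The salinomycin group (3 libraries) was senescent A549 cells given 2.5 µM salinomycin, an ionophore that carries potassium and other alkali metal ions across membranes, for 48 h. The untreated group (3 libraries) was senescent A549 cells without salinomycin. Senescence had been brought on in both groups by 1 week of alisertib, which blocks the mitotic kinase Aurora A, and cells without alisertib were not analysed here, nor was a second cell line. The labels call the 3 libraries of a group biological replicates and do not say how the cultures were separated. The p-values thus rest on spread between these libraries, which may be partly technical, with variances shared among genes of similar level. The genes were proposed with their values in this comparison known, so their values and changes are a description, without tests of their own.

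Mucins are large proteins whose stretches rich in serine, threonine and proline carry dense O-linked sugar chains. The gel-forming mucins MUC5AC and MUC5B are secreted by airway goblet cells and submucosal glands and make up most of the mucus gel that traps inhaled particles. The membrane mucins, among them MUC1, MUC4, MUC13, MUC16 and MUC20, are anchored in the apical surface, form part of the layer around the cilia and pass signals into the cell. MUC13 is best known from the gut, and EMCN (endomucin) is a sialomucin of endothelial cells rather than of airway epithelium.

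With salinomycin MUC4 rose and MUC1, MUC5AC, MUC5B, MUC13, MUC16 and MUC20 fell, which makes 1 gene higher and 6 lower. The limma fit covered 13088 genes, and at an adjusted p (Benjamini-Hochberg) under 0.05 it called 81.9% of them, 41.6% higher and 40.2% lower with salinomycin. Since the 8 genes were picked from this comparison, nothing is read from their count. The 3 salinomycin libraries all lay below the 3 untreated libraries for 5 of the 7 tested mucin genes and above them for 1, MUC4, against 40.6% and 42.4% of all tested genes. Their median log2 change was -1.4, beside 0.022 for all tested genes. Levels are in normalised units, which are the deposited values less the added 1, divided by trimmed-mean (TMM) scale factors. Log2 changes are salinomycin over untreated on the scale of log2 of these units plus 1, and SE is their standard error. The limma fit draws the variance of each gene behind its SE towards that of genes at a similar level. RNA was measured in bulk, so fewer cells with a transcript and less of it in each cell cannot be told apart.

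The windows around the RefSeq transcript starts of MUC4, MUC13 and MUC1 are shown because these are the member that rose, the fallen member with the closest agreement between salinomycin libraries, and the member with the smallest change. Each window runs from 250 bases before the start to 50 after it, on the minus strand of GRCh38.p14, written 5′ to 3′, and capitals mark the motif matches named below.
MUC4 (chr3:195811880-195812179): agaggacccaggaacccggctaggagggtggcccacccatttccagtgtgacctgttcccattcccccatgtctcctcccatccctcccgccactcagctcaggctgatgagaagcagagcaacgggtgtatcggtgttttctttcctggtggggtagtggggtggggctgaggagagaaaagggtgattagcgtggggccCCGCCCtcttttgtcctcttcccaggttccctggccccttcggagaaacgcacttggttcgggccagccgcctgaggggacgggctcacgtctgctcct
MUC13 (chr3:124934702-124935001): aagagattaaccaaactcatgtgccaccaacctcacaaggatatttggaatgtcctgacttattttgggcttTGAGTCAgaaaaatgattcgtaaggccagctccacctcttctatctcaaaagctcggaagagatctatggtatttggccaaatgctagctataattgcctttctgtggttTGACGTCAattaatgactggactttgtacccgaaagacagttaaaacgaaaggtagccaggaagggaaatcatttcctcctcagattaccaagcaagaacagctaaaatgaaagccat
MUC1 (chr1:155192866-155193165): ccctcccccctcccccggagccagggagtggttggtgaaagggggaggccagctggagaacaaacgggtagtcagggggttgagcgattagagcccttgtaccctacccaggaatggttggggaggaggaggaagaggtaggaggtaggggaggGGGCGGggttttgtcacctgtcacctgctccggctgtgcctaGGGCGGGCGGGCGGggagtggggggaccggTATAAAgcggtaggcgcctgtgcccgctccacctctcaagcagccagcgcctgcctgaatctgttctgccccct
Motifs of stress and growth signalling, of forkhead factors and of core promoters were searched on both strands. They were the cyclic AMP response element (CRE) TGACGTCA, the AP-1 motif TGANTCA, the ATF4 and C/EBP composite TGATGNAA, the endoplasmic reticulum stress element, the antioxidant response element TGACNNNGC, the GC box GGGCGG, the forkhead motif TGTTTAC and the TATA motif TATAAA. The MUC4 window held a GC box, beginning 49 bases before the start, and none of the other 7 motifs. The MUC13 window held the full CRE, 68 bases before the start, and an AP-1 match 178 bases before it. The CRE was present in 1.85% of 35116 windows of this length and the AP-1 motif in 7.71%. The MUC1 window held 4 GC boxes, 3 of them overlapping, and a TATA match 24 bases before the start. GC boxes were present in 45.0% of all windows and the TATA motif in 11.5%. The other 4 motifs, none of which was found in these 3 windows, were present in 3.62% (ATF4 and C/EBP composite), 0.0769% (endoplasmic reticulum stress element), 13.3% (antioxidant response element) and 3.42% (forkhead) of windows. The windows of MUC13 and MUC4 lie inside the spans that GENCODE release 29 gives these genes (124905442 to 124953819 and 195746765 to 195812277 on chromosome 3), so another start is annotated farther upstream for each. Windows were matched for 5 of the 8 genes in the RefSeq table used here, and MUC5AC, MUC5B and MUC20 were not matched.

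**Figure D1:**
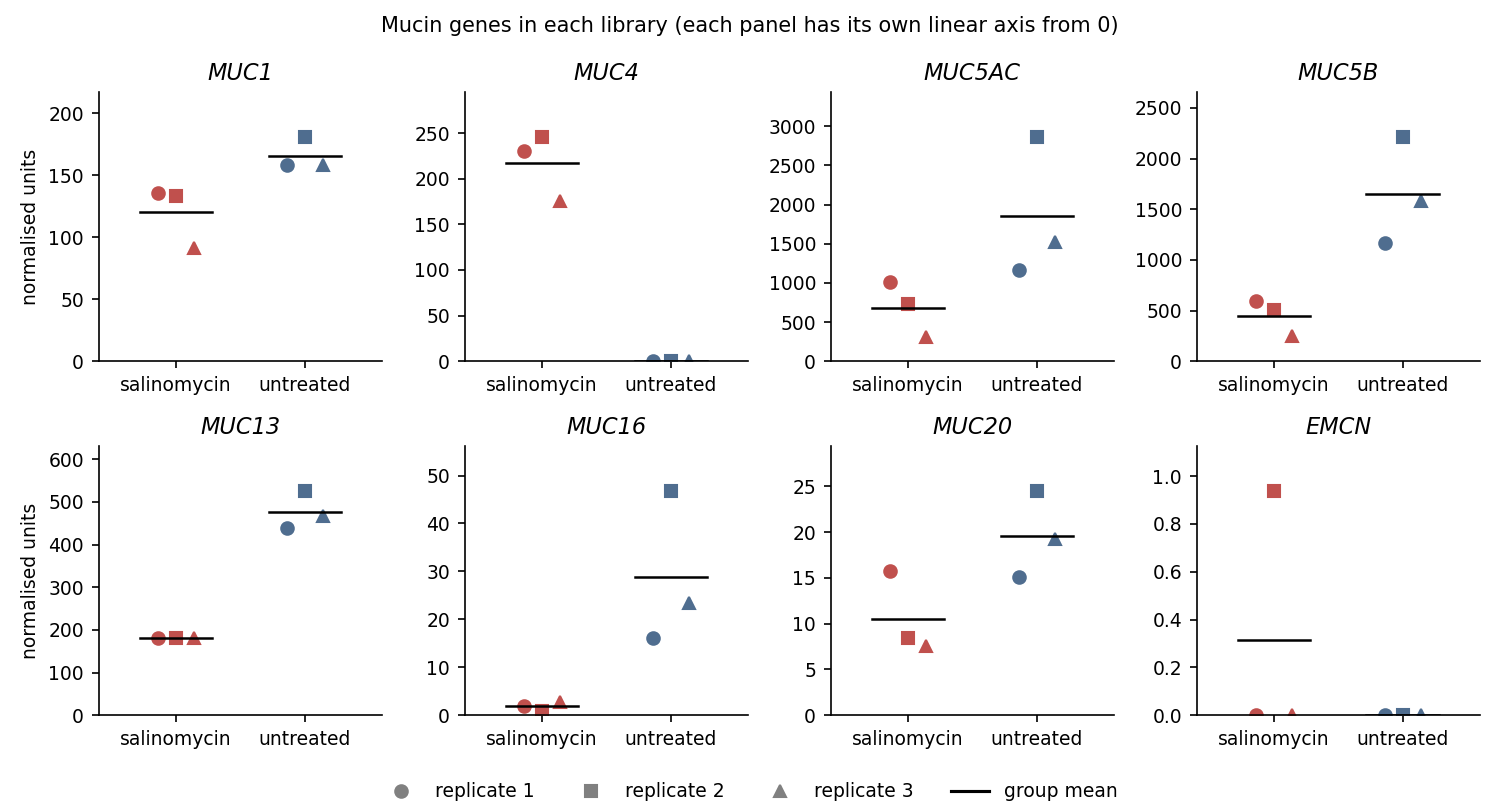
Normalised units of the 8 mucin genes in each library, salinomycin at the left and untreated at the right of each panel, with a symbol per replicate and a line at the group mean (n = 3 per group). Each panel has its own linear axis from 0. MUC4 stands at 176 to 246 units with salinomycin and at 0 in untreated cells, and MUC20 and EMCN are the panels in which the groups overlap.

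MUC5AC and MUC5B, the gel-forming mucins, both fell with salinomycin. MUC5AC (chromosome 11, 1157953 to 1201138, plus strand) had 1009, 728 and 314 units in salinomycin libraries 1, 2 and 3, against 1166, 2865 and 1525 units in untreated libraries 1, 2 and 3. The groups did not overlap, but salinomycin library 1 and untreated library 1 lay close together. The log2 change was -1.49 (SE 0.378), a 2.8-fold fall. MUC5B (chromosome 11, 1223066 to 1262172, plus strand) had 591, 505 and 246 units with salinomycin, against 1168, 2214 and 1577 units in untreated cells. Here every salinomycin library lay well below every untreated one, and the log2 change was -1.93 (SE 0.284), a 3.81-fold fall. MUC5AC averaged 683 ± 350 units with salinomycin and 1852 ± 895 in untreated cells, and MUC5B averaged 447 ± 180 units with salinomycin and 1653 ± 527 in untreated cells (SD, n = 3 each).

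These values carried an unusually large spread between replicates. Among 8817 genes with a mean level above 200 units, MUC5AC had the largest standard deviation within groups (0.773 on the log2 scale) and MUC5B the second largest (0.577). The 4406 other genes within 2-fold of the level of MUC5AC had a median of 0.0755. The limma SEs and calls of MUC5AC and MUC5B borrow from such genes, so these SEs are smaller than their own spread alone would give. Salinomycin library 3 was the low one for both genes, and untreated library 2 was the high one. On the log2 scale MUC5AC deviated from its group mean by 0.72, 0.25 and -0.97 in salinomycin libraries 1 to 3 and by -0.56, 0.74 and -0.17 in untreated libraries 1 to 3. The deviations of MUC5B were 0.5, 0.27 and -0.77 with salinomycin and -0.45, 0.47 and -0.02 in untreated cells, with the same sign in each library. Those of MUC1, which were smaller, had the same signs too (0.2, 0.17 and -0.37 with salinomycin, and -0.07, 0.13 and -0.06 in untreated cells). With salinomycin MUC4 had these signs (0.09, 0.19 and -0.28), whereas MUC16 (0.05, -0.51 and 0.47) and MUC20 (0.6, -0.23 and -0.38) did not. MUC13 hardly deviated there. In untreated libraries 1 to 3, MUC16 (-0.66, 0.81 and -0.15) and MUC13 (-0.12, 0.14 and -0.03) did have the signs of MUC5AC. MUC20 had -0.33, 0.33 and -0.0 in these untreated libraries. Without salinomycin library 3 the log2 change of MUC5AC was -1.02, and without salinomycin library 1 it was -1.85. The ratio of MUC5AC to MUC5B units was 1.71, 1.44 and 1.27 with salinomycin, against 0.999, 1.29 and 0.967 in untreated cells. It thus varied less than either gene.

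**Figure D2:**
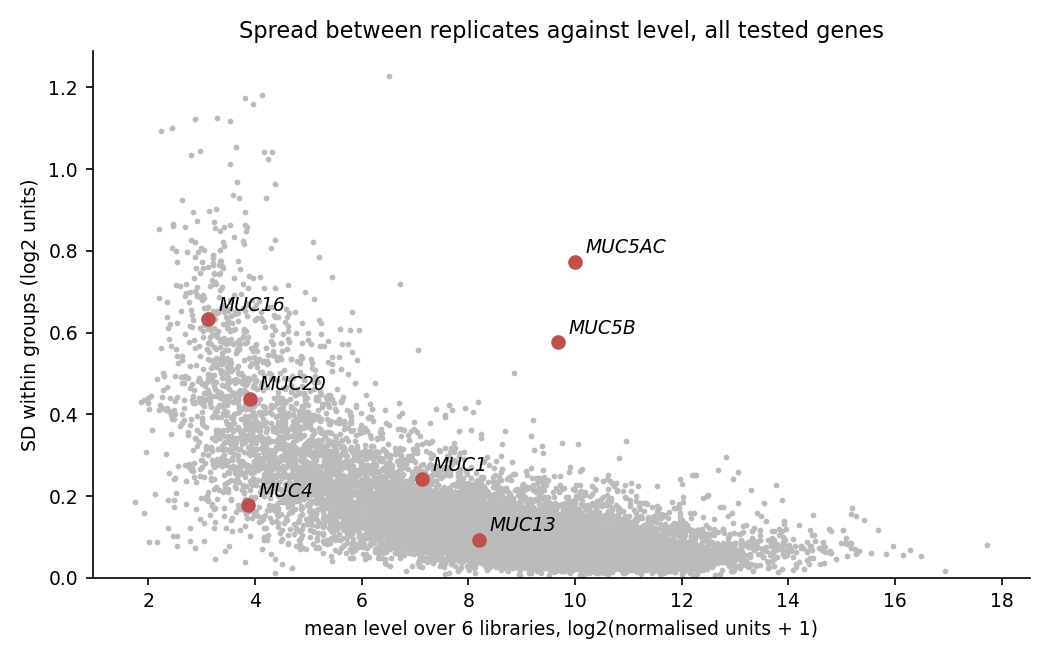
Standard deviation within groups (log2 units) against the mean level over the 6 libraries for 13088 tested genes (grey) and the 7 tested mucin genes (red). MUC5AC at 0.773 and MUC5B at 0.577 stand above the other genes of their level, and MUC13 at 0.0931 lies among them.

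FCGBP, which encodes a large mucus protein of goblet cells that binds to MUC2, was looked at after its values were seen because it deviated in the same way. It had deviations of 0.29, 0.2 and -0.49 in salinomycin libraries 1 to 3 and of -0.28, 0.44 and -0.16 in untreated libraries 1 to 3. MUC4, MUC5AC, MUC5B and MUC16 have coding transcripts over 10 kb, and so the 558 tested genes with such transcripts were compared. Their median deviation was 0.07, 0.036 and -0.102 in the salinomycin libraries, the order of MUC5AC. In the untreated libraries it was -0.137, 0.043 and 0.099, which is not that order. Genes with coding transcripts under 2 kb (2521 tested) had medians of -0.056, 0.003 and 0.054 with salinomycin and of 0.06, 0.002 and -0.054 in untreated cells. The long transcripts had a median log2 change of -0.187 and the short ones of 0.139, while of the 4 mucin genes with long transcripts MUC4 rose and the other 3 fell, and the part of transcript length in the mucin values was not tested.

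**Figure D3:**
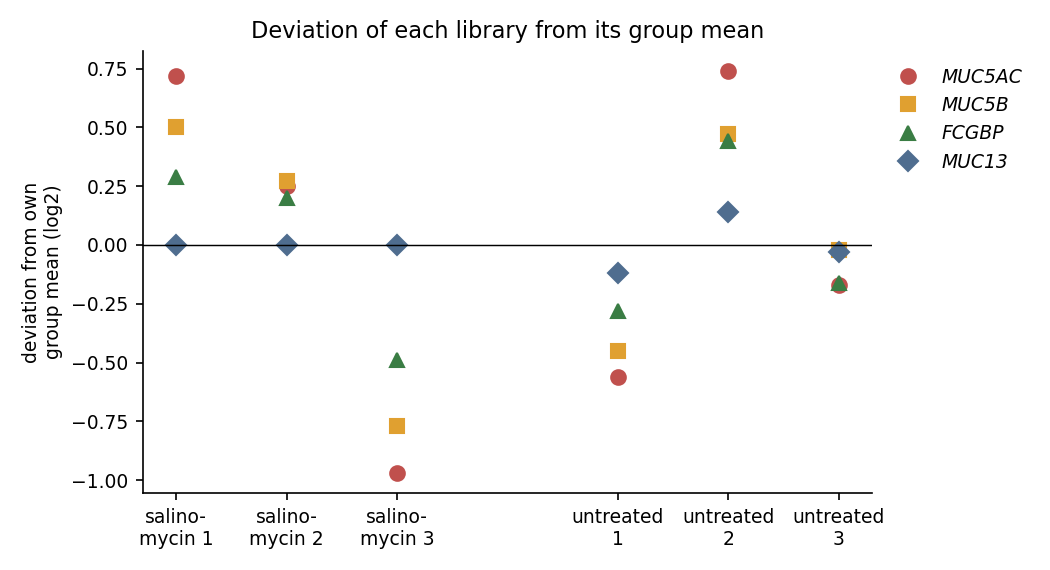
Deviation of each library from the mean of its own group on the log2 scale, salinomycin libraries at the left and untreated libraries at the right, for MUC5AC, MUC5B, FCGBP and MUC13. The first 3 genes are low in salinomycin library 3 (-0.97, -0.77 and -0.49) and high in untreated library 2 (0.74, 0.47 and 0.44), while MUC13 stays within 0.14 of its group mean.

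MUC5AC and MUC5B lie next to each other on the short arm of chromosome 11, 21.9 kb apart and transcribed in the same direction. MUC2, the gel-forming mucin of the gut and the next protein-coding gene on the other side of MUC5AC, had 6.83 ± 4.38 units with salinomycin and 8.55 ± 3.8 in untreated cells (SD, n = 3 each), too few to be tested. MUC6, the gel-forming mucin of the stomach, was at 1 read over the 3 salinomycin libraries and 16 over the untreated ones. TOLLIP, an adaptor that dampens Toll-like receptor signalling and lies beyond MUC5B, rose to 1388 ± 51.3 units with salinomycin, against 1073 ± 107 in untreated cells (log2 change 0.37).

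MUC4 was the only one of the 8 genes that rose. MUC4, a membrane mucin that binds the receptor ERBB2 (chromosome 3, 195746765 to 195812277, minus strand), had 230, 246 and 176 units in salinomycin libraries 1, 2 and 3, against 0 in each of the 3 untreated libraries. In reads recovered from the rounding steps of the values this was 298, 239 and 214, against 0. Against a floor of 3 reads over the untreated group it was at least 188-fold higher with salinomycin. Its log2 change of 7.76 (SE 0.258) depends on the pseudocount and is no measure of a ratio. The gene beside it behaved differently. MUC20, a small membrane mucin known to bind the receptor MET (chromosome 3, 195720882 to 195741123, plus strand), ends 5.64 kb from the end of MUC4, on the opposite strand. It had 15.7, 8.44 and 7.51 units with salinomycin, against 15.1, 24.5 and 19.2 in untreated cells. Salinomycin library 1 lay above untreated library 1, so the groups overlapped. Over each group the reads numbered 37 with salinomycin and 51 in untreated cells, and the log2 change was -0.88 (SE 0.322). With 1 library left out at a time, the log2 change of MUC20 lay between -1.17 and -0.7. The gene did not pass without salinomycin library 2 or 3, or without untreated library 2 or 3. TNK2, a kinase gene on the far side of MUC4, did not pass the test, at 319 ± 13.5 units with salinomycin and 334 ± 38.1 in untreated cells. APOD, an apolipoprotein gene on the far side of MUC20, rose to 209 ± 14.1 units with salinomycin, against 105 ± 11.6 in untreated cells (log2 change 0.98).

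MUC13, a membrane mucin with an extracellular domain like that of epidermal growth factor (chromosome 3, 124905442 to 124953819, minus strand), had 180 units in each of the 3 salinomycin libraries, against 439, 526 and 467 in untreated cells. It was the most even of the 8 genes, with a spread within groups of 0.0931 on the log2 scale, close to the median of 0.106 for genes of its level. Its log2 change was -1.4 (SE 0.086), a 2.64-fold fall. HEG1, a mucin-like receptor gene that lies 11.9 kb away, fell 2.03-fold to 578 ± 49.4 units with salinomycin, against 1174 ± 109 in untreated cells. ITGB5, an integrin gene on the other side, fell to 4673 ± 206 units with salinomycin, against 9262 ± 290 in untreated cells (log2 change -0.99).

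MUC1, the best studied membrane mucin, whose cytoplasmic tail binds beta-catenin (chromosome 1, 155185824 to 155192916, minus strand), had 136, 133 and 91.1 units with salinomycin, against 158, 181 and 158 in untreated cells. The groups did not overlap, but the gap between them was narrower than the spread of the salinomycin libraries. The log2 change was -0.48 (SE 0.152), and it was -0.3 without salinomycin library 3. With scaling by library size alone, which moved the median of all tested genes to 0.212, the log2 change of MUC1 was -0.29 and that of MUC20 was -0.7. THBS3, the next gene, did not pass, at 717 ± 88.6 units with salinomycin and 703 ± 34.1 in untreated cells. A separate protein-coding gene annotated on the same strand, which overlaps the 3′ end of MUC1, was not analysed here.

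MUC16, the giant membrane mucin that carries the tumour antigen CA-125 (chromosome 19, 8848844 to 8981342, minus strand), was low in both groups for its length. It had 1.85, 0.938 and 2.82 units with salinomycin, against 16.2, 46.8 and 23.5 in untreated cells, and every salinomycin library lay below every untreated one. Over each group this was 6 reads with salinomycin, against 76 in untreated cells. Scaled for depth, the ratio of untreated to salinomycin was 16.9, and its 95% interval for counting error ran from 7.42 to 47.5. The fitted fall of 9.85-fold shrank to a log2 change of -1.82 with a pseudocount of 8, in place of -3.3.

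EMCN (chromosome 4, 100395341 to 100880126, minus strand) had a single read in salinomycin library 2 and none in the other 5 libraries, below the floor in both groups, and no fold is given. Markers of endothelial cells, in which EMCN is known, were also low. CDH5 averaged 2.18 ± 1.43 units with salinomycin and 8.92 ± 0.57 in untreated cells, TEK averaged 5.3 ± 1.1 units with salinomycin and 3.22 ± 1.89 in untreated cells, and the 4 endothelial markers with a row summed to 7.51 to 14.8 units per salinomycin library and 11.7 to 20.5 per untreated library. Of the 8 genes MUC5AC and MUC5B had the highest mean units in both groups, though per kb of transcript, given below, MUC13 had more. EMCN and, with salinomycin, MUC16 were at or near 0, as was MUC4 in untreated cells.

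**Figure D4:**
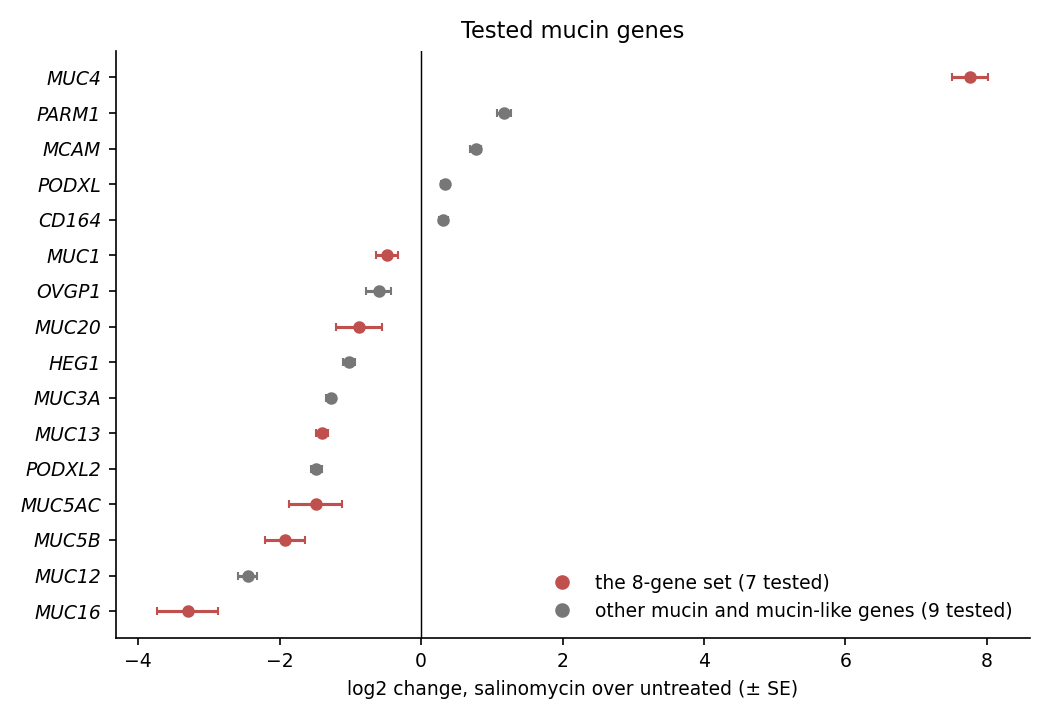
Log2 change of the 16 tested mucin and mucin-like genes, salinomycin over untreated, with its standard error. MUC4 is at 7.76, and the other 6 tested genes of the set (red) lie between -3.3 for MUC16 and -0.48 for MUC1. The other mucin and mucin-like genes are in grey.

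Per kb of the longest coding transcript, the levels can be set side by side, on the assumption that reads fell along the whole transcript. With salinomycin MUC13 had 62.5 units per kb, MUC5AC 39.2, MUC1 28.8, MUC5B 25.0, MUC4 12.7 and MUC20 3.72, with EMCN at 0.0774 and MUC16 at 0.0426. The ranges of MUC5AC (18.0 to 57.8), MUC1 (21.8 to 32.6) and MUC5B (13.7 to 33.0) overlapped, so those 3 were not ordered beyond their spread, and MUC4 (10.3 to 14.4) reached into the range of MUC5B. In untreated cells the order was MUC13 at 166 units per kb, MUC5AC at 106, MUC5B at 92.3, MUC1 at 39.7, MUC20 at 6.9 and MUC16 at 0.658, with MUC4 and EMCN at 0. The ranges of MUC13 (152 to 183), MUC5AC (66.9 to 164) and MUC5B (65.2 to 124) overlapped from each to the next. MUC1 (37.8 to 43.4) lay below MUC5B in every untreated library and within its range with salinomycin.

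Other genes whose 6 values, centred on their own mean, ran closest to each mucin gene were sought among genes within 4-fold of its level. MUC5B was the closest of 7574 genes to MUC5AC, at a Euclidean distance of 0.699 on the log2 scale over the 6 libraries, with MAGI3 next at 1.19. MUC5AC was in turn the closest of 7914 genes to MUC5B, with GABBR1 next at 0.787. For MUC4 the closest were PIK3R5 (1.15) and APOA4 (1.32), which were likewise at or near 0 in untreated cells, and for MUC13 they were SERINC5 (0.129) and FBXO9 (0.139). For MUC1 they were BTC (0.198) and SP4 (0.216), for MUC16 FER1L6 (0.797) and PON1 (0.881), and for MUC20 CLEC2D (0.337) and CCNB2 (0.363). With only 2 conditions, many genes come close to any called gene.

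The authors' deposited table gave an adjusted p under 0.05 for MUC4, MUC5B, MUC13 and MUC16. The share of all genes under it there was not computed, so nothing is read from how many mucin genes passed. In the authors' deposited table the log2 fold change was -1.24 for MUC5AC, -0.264 for MUC1 and -0.649 for MUC20. These 3 genes had an adjusted p above that threshold, MUC5AC only just. The values there rest on another scaling and another test.

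Among 19 other mucin and mucin-like genes, 15 had a row and 9 were tested, of which 4 rose and 5 fell, and their median log2 change was -0.6. MUC12 and MUC3A, membrane mucins of the gut that lie together on chromosome 7, fell. MUC12 (100969623 to 101018949) averaged 51.7 ± 1.97 units with salinomycin and 290 ± 48.2 in untreated cells (SD, n = 3 each; log2 change -2.45, SE 0.135; limma adjusted p = 6.65e-09). MUC3A (100949555 to 100968346) averaged 490 ± 14.8 units with salinomycin and 1192 ± 49.3 in untreated cells, a 2.43-fold fall (limma adjusted p = 1.51e-09), and MUC17, a further membrane mucin of the gut, had 7 reads with salinomycin and 21 in untreated cells, too few to be tested. PODXL2, a sialomucin that binds selectins, fell 2.78-fold, and OVGP1, the oviduct mucin, fell 1.51-fold. PARM1 rose 2.24-fold, MCAM 1.7-fold, PODXL, the podocyte sialomucin, 1.26-fold and CD164 1.24-fold. MUC22 had 6 reads with salinomycin and 2 in untreated cells, MUCL3 had 11 reads with salinomycin and 13 in untreated cells, and MUC21 had 0 with salinomycin and 1 in untreated cells. MUC3A has a close copy and mucins hold long tandem repeats, so reads of these genes could have been split or lost in counting.

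The sugar chains of mucins are begun by GalNAc transferases, and 8 of the 16 tested fell, 4 rose and 4 did not pass (median log2 change -0.67). GALNT1, a broadly expressed enzyme of the family, fell 4.26-fold to 2068 ± 61.0 units with salinomycin, against 8813 ± 95.4 in untreated cells (limma adjusted p = 4.09e-12). GALNT10, another enzyme of the family, fell 2.99-fold, to 2973 ± 145 units with salinomycin, against 8888 ± 433 in untreated cells. GALNTL6, an atypical member, had 11 reads with salinomycin and 491 in untreated cells. GALNT9 rose 5.33-fold to 475 ± 44.4 units with salinomycin, against 88.2 ± 5.44 in untreated cells. Of 13 tested enzymes that extend and cap the chains, 6 rose and 7 fell (median log2 change -0.45). GCNT1, the core 2 branching enzyme of leukocytes and epithelia, rose 5.88-fold, while GCNT3, the branching enzyme of mucus-making tissues, fell 1.37-fold, to 4501 ± 201 units with salinomycin, against 6146 ± 163 in untreated cells. B3GNT6, the core 3 synthase, had 121 reads with salinomycin and 3 in untreated cells, and ST6GALNAC1, the enzyme that makes sialyl-Tn, had 1 with salinomycin and 51 in untreated cells. In the authors' deposited table of gene sets, 10 sets are named for mucins, goblet cells or O-glycans, a search made after the values were seen, and 2 of them had an adjusted p under 0.05. In that authors' deposited table the lung goblet cell set had a normalised enrichment score of -1.516 (adjusted p = 0.029), and a set of goblet cells from large intestine had -1.779 (adjusted p = 0.0353). The Reactome set for O-linked glycosylation of mucins had -1.384 (adjusted p = 0.172). The rest had adjusted p up to 0.881, and a goblet cell set of small intestine had a positive score of 0.989. These scores come from the comparison in which the mucin genes were picked. The share of all sets under 0.05 was not computed, so nothing is read from them.

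**Figure D5:**
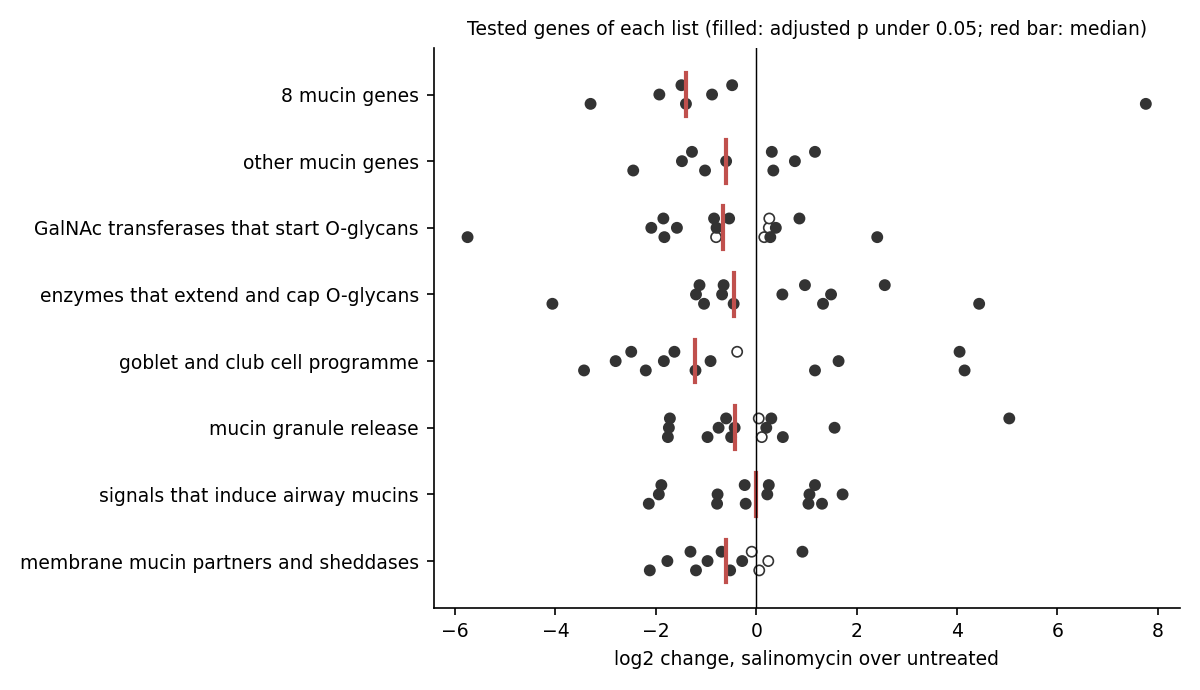
Log2 change of each tested gene, salinomycin over untreated, for the mucin genes and 7 lists of genes around them. Filled points passed an adjusted p under 0.05, open points did not, and red bars are medians, which run from -1.4 for the 8 mucin genes to 0.0 for the signals that induce airway mucins.

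Of 23 listed genes of the goblet and club cell programme, 19 had a row and 13 were tested. Of those tested, 8 fell, 4 rose and 1, FOXA3, did not pass (median log2 change -1.21). Of all tested genes 41.6% rose and 40.2% fell. SPDEF, the transcription factor that drives goblet cell differentiation, fell 3.59-fold to 29 ± 3.54 units with salinomycin, against 106 ± 1.75 in untreated cells (limma adjusted p = 2.52e-07). AGR2, a disulfide isomerase needed to fold gel-forming mucins, fell 2.31-fold to 2280 ± 112 units with salinomycin, against 5313 ± 779 in untreated cells. FOXA2, a forkhead factor that restrains goblet cell metaplasia in mice, fell 1.88-fold. FCGBP fell 5.62-fold, BPIFB1, a secreted protein of the upper airways, 10.8-fold, and SLPI, an airway antiprotease, 6.98-fold. NKX2-1, the lung lineage factor, had 55 reads with salinomycin and 0 in untreated cells, a rise of at least 13.7-fold with the same floor as for MUC4. TFF2, a trefoil peptide co-secreted with mucins in the stomach, had 97 reads with salinomycin and 2 in untreated cells, and TFF1 rose 2.25-fold. None of the 4 genes of this list that rose reached 50 units in 3 libraries, so none of them was tested under a filter of that size. ERN2, AGR3, TFF3, BPIFA1, PIGR and LTF were too low to be tested. The club cell secretoglobins and the goblet cell gene CLCA1 had no row and were not analysed here.

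Of 15 tested genes of mucin granule release, 8 fell, 5 rose and 2 did not pass (median log2 change -0.43). RAB3D, a GTPase of secretory granules, fell 3.38-fold, SYTL2, a Rab27 effector, 3.35-fold, and VAMP8, the main SNARE of airway mucin granules, 1.68-fold. CADPS2, a priming factor of dense-core vesicles, rose to 371 ± 15.8 units with salinomycin, against 10.4 ± 0.676 in untreated cells (log2 change 5.04, SE 0.137; limma adjusted p = 2e-11). UNC13D, a priming factor that works with RAB27A, rose 2.95-fold.

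Of 14 tested signals known to induce airway mucins, 7 rose and 7 fell (median log2 change 0.0), and with scaling by library size alone 7 rose and 4 fell. The epidermal growth factor receptor ligands TGFA, EREG, HBEGF and AREG rose 3.3, 2.49, 2.26 and 2.08-fold, and the receptor EGFR rose 1.19-fold. STAT6, the transcription factor of interleukin 4 and 13 signalling, fell 4.4-fold to 1170 ± 46.0 units with salinomycin, against 5144 ± 118 in untreated cells (limma adjusted p = 6.22e-12). HIF1A, the hypoxia factor, fell 3.84-fold to 2185 ± 47.3 units with salinomycin, against 8387 ± 269 in untreated cells. IL1R1 fell 3.7-fold and IL13RA1 1.71-fold.

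Among 12 partners and sheddases of membrane mucins, 8 fell, 1 rose and 3 did not pass (median log2 change -0.61), and with scaling by library size alone 7 fell and 2 rose. ERBB2, the partner of MUC4, fell 2.3-fold to 1400 ± 79.4 units with salinomycin, against 3219 ± 225 in untreated cells, and ERBB3 fell 4.35-fold. SRC, a kinase that phosphorylates the MUC1 tail, fell 3.42-fold to 3244 ± 82.1 units with salinomycin, against 11113 ± 553 in untreated cells, and CTNNB1, which encodes beta-catenin, fell 2.48-fold. MET, the partner of MUC20, fell 1.44-fold. ADAM17, a protease that sheds MUC1, rose 1.89-fold, and MSLN, which encodes the MUC16 ligand mesothelin, did not pass, at 128 ± 17.0 units with salinomycin and 139 ± 37.3 in untreated cells.

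Total deposited values lay within 0.692% of each other over the 6 libraries, and reads recovered from them ranged from 14929443 to 19641149 with salinomycin and from 13539959 to 16293117 in untreated cells. The epithelial markers ranged widely in level. KRT18 had 20262 ± 724 units with salinomycin and 84124 ± 4540 in untreated cells. EPCAM was low, at 19.0 ± 3.06 units with salinomycin and 46.7 ± 9.02 in untreated cells. Of the 6 epithelial markers 5 fell and 1, KRT19, rose. Their sum was 61088 to 70542 units per salinomycin library and 210313 to 238053 per untreated library, and the part of this fall in the mucin values was not tested. Of markers of other cells, fibroblast genes had 3 lower and 0 higher of 4 tested, with COL1A1 at 416 ± 18.3 units with salinomycin and 667 ± 128 in untreated cells. Leukocyte markers had 1 higher and 1 lower of 2, with CD14 at 30.2 ± 9.88 units with salinomycin and 201 ± 16.0 in untreated cells, and PTPRC was not analysed here. Ciliated cell markers had 1 higher and 2 lower of 3, with DNAH5 at 64.4 ± 2.99 units with salinomycin and 256 ± 66.6 in untreated cells, and RSPH1 at 107 ± 7.38 units with salinomycin and 38.6 ± 10.3 in untreated cells. FOXJ1, a defining factor of these cells, had 0 reads with salinomycin and 20 in untreated cells. Basal cell markers had 2 higher and 1 lower of 3, with TP63 at 11.8 ± 4.13 units with salinomycin and 563 ± 26.1 in untreated cells, and KRT15, which rose 19.4-fold, at 499 to 507 units with salinomycin and 18.1 to 30.9 in untreated cells. All 6 libraries were of the A549 line, so these genes are read as RNA of that line and not of other cells. Their relation to the mucin values was not tested.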

How the data were processed

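Per the submitters' processing notes GRCh38 was the build. Aligner, counter, strand setting and annotation are not given in the sources used here. Each library had 1 column of deposited signal values, which were whole numbers with a lowest value of 1 and near-equal totals, so the authors appeared to have rescaled counts and added 1. Scale factors of 0.831 to 1.2035 were estimated from rounding steps among low values, and reads were recovered with them as estimates. Beside them stood, per the file headers, log10 means, log2 fold changes, a linear fold change (ratio), a test score and p-values from the authors' own comparison, and a second deposited table held enrichment scores and p-values of gene sets.

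The 1 was subtracted, values were divided by TMM factors combined with library totals (30% and 5% trimming), and log2 of the value plus 1 was tested with limma 3.58.1 in R 4.3.3, with its trend option and p-values adjusted by Benjamini-Hochberg over the 13088 genes that reached 10 in 3 libraries. No count model was used. Intervals (95%, exact) and floors (3 reads over a group) hold for counting error alone. Replicates differed beyond sampling noise (chi-square of 2.78 to 6.5 per gene for each pair), so all 6 libraries were counted. Gene spans, neighbours and transcript lengths came from GENCODE release 29 on GRCh38.

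The 8 genes, the lists around them and the rule for named genes were chosen with earlier results of these data known. Named were the 8 genes, the other mucin genes with a row, the 3 largest called changes of each list, the most abundant gene of each marker list, the 2 genes nearest in pattern and the nearest protein-coding genes. Further list genes were named after their values were seen. The fit was also run on simulated data with few changed genes and less spread than MUC5AC and MUC5B had, so nothing is read from that run. Alternatives were other scalings, filters and pseudocounts, limma-voom on recovered reads, a block on replicate number, and each library left out in turn.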

Additional observations from a re-analysis of the deposited data

How the results depend on the processing

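Over all tested genes, 5451 were higher and 5266 lower with salinomycin. These became 6461 and 4353 with scaling by library size alone, which moved the median log2 change of all genes to 0.212, 5735 and 5645 with no filter, 5003 and 4663 with the stricter filter of 50 units, and 5325 and 5130 with the replicate number as a block. Leaving out 1 library gave 5176 to 5387 higher and 5073 to 5142 lower. Of the mucin genes 1 was higher under each alternative. Lower were 4 with library size alone, where MUC1 and MUC20 did not pass, and 4 with the stricter filter, under which MUC16 and MUC20 were not tested. They numbered 5 or 6 without 1 library, MUC20 being the gene that dropped out, and 6 under the other alternatives. Scaling by library size alone gave 2 higher partners of membrane mucins and 4 lower inducing signals, and the stricter filter gave 0 higher genes of the goblet and club cell programme, since none of the 4 reached 50 units in 3 libraries. The log2 change of MUC4 was 4.8 with a pseudocount of 8 and 8.75 with 0.5.

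Deviations of same-numbered libraries had correlations across genes of -0.172, -0.013 and -0.033, and those of unlike-numbered pairs ran from -0.154 to 0.194. Deviations centred within groups of 3 libraries cannot settle whether a number marks a shared batch, and the labels do not say. The replicate block ended 2 calls among 135 named genes. No named gene changed sign with a call under any alternative run. Depth limits MUC16, MUC20 and EMCN.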
